A study of Arabidopsis thaliana with 8 samples.

Results

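The genes described here build iron-sulfur clusters in Arabidopsis thaliana and were followed in rosette leaves that lacked copper, iron or both. They were chosen by locus identifier from published knowledge of the pathway, with earlier results of these data known. They are 35 of the 38088 identifiers in the deposited tables: 14 of the plastid SUF system and its carriers, 12 of the mitochondrial ISC system with the exporter ATM3, 8 of the cytosolic CIA system, and NEET. RNA of Col-0 rosette leaves was sequenced from 4 groups of 2 libraries. All plants spent 12 d on soil and 10 d in a tenth-strength Hoagland solution with 1 µM CuSO4, then 10 d under treatment, and leaves were taken 4 h after lights on. Control plants stayed in the same solution, copper deficiency meant no CuSO4 and 10 µM of the copper chelator bathocuproinedisulfonic acid, iron deficiency meant no FeEDTA, and the double deficiency combined these omissions with the chelator. The labels give the plants as 20 d old, which the cultivation periods exceed. Whether libraries of the same group represent separate cultures is not stated in the labels, so the p-values measure only the spread between these libraries, which may be technical. Rosette leaves were used, and in such bulk RNA fewer cells of a type cannot be told apart from less RNA per cell.

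Iron-sulfur clusters are electron-carrying and catalytic cofactors made from iron and from sulfur that a cysteine desulfurase takes off cysteine. The cluster is put together on a scaffold and handed by carriers to client proteins. Plastids use the SUF system and mitochondria the ISC system, each with its own desulfurase. The cytosolic CIA system serves cytosolic and nuclear clients and depends on the mitochondrial desulfurase NFS1 and the exporter ATM3. In leaves, photosystem I, ferredoxin and the cytochrome complexes are among the clients. NEET is a protein of plastids and mitochondria that binds a cluster itself and has been tied to iron and redox homeostasis.

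Levels are the deposited FPKM, fragments per kilobase of transcript scaled to library size, so that genes can be compared per length. Libraries with iron are below the 4 of the control and copper-deficient groups, and libraries without iron the 4 of the iron-deficient and double-deficient groups. Relative depth, judged from the width of the deposited bounds, was 0.589 to 0.781 in the libraries with iron and 0.788 to 1 in those without. At least 1 FPKM was reached by 16842 to 17421 genes with iron and 17951 to 18396 without. Nuclear coding genes took 78.7% to 93.4% of all FPKM with iron and 69.2% to 78.5% without. The median gene stood higher without iron, by 0.27 (iron deficiency) and 0.41 (double deficiency) on the log2(FPKM + 1) scale against control, and by 0.01 in copper deficiency, so medians of gene groups are given relative to that shift. BHLH39, an iron-deficiency regulator, rose from at most 0.338 FPKM in the 4 libraries with iron to at least 346 FPKM in the 4 without. It was 1 of 6 genes listed to check metal status, with IMA1, FER1, FSD1, CSD2 and COPT2. None of the 6 was called in copper deficiency, where their changes ran from -1.07 to 1.17. The summed leaf mesophyll markers (RBCS1A, RCA, LHCB1.3) stood at 45141 to 47656 FPKM with iron and at 21918 to 27038 FPKM without. LHCB1.3 carried most of that difference (22922 to 24809 against 6507 to 8596 FPKM), and 1 of the 3 fell in iron deficiency and 2 in double deficiency. The 4 root markers together stayed at or below 0.922 FPKM. The 4 dividing cell markers summed to 7.97 to 24.3 FPKM with iron and 52.5 to 65.6 FPKM without, and 3 of 4 rose in iron deficiency (4 of 4 in double deficiency). Flower markers summed to 0.505 to 1.86 FPKM with iron and 3.86 to 8.9 FPKM without, and of the 4 tested 1 rose in iron deficiency and 2 in double deficiency. Guard cell markers summed to 1719 to 2201 FPKM with iron and 1101 to 1625 without, and in each deficiency of iron 2 of 5 rose while 1 (iron) or 2 (double) fell. Phloem markers summed to 83.1 to 98.2 FPKM with iron and 57.8 to 107 without, with 1 of 3 risen in iron deficiency and 1 risen and 1 fallen in double deficiency. The part of these markers and library differences in the results below was not tested.

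NEET (AT5G51720, chromosome 5, 21009347 to 21010345) showed the widest range of all members. It had 211 and 239 FPKM in control leaves, 272 and 130 in copper deficiency, 0.257 and 0.476 in iron deficiency, and 1.08 and 0.247 in double deficiency. Every library with iron exceeded every library without it, and the copper-deficient libraries overlapped the controls. The change was -7.37 ± 0.38 (SE) on the log2(FPKM + 1) scale in iron deficiency (limma adjusted p = 0.000105) and -7.13 ± 0.38 in double deficiency (0.0001), and it understates the linear change because of the pseudocount. With iron, NEET RNA made up 8.24% to 17.3% of the summed FPKM of all 35 members. Without iron it made up 0.0138% to 0.062%. The 250 bases before the annotated start of NEET (TAIR10.1, chr5:21009097-21009346, plus strand) and of SUFB, the member with the next largest fall (chr4:2429900-2430149, minus strand), are shown because these genes moved together. Capitals would mark a G-box (CACGTG) or a site II element (TGGGCC or TGGGCT, either strand), and neither window holds one.
NEET: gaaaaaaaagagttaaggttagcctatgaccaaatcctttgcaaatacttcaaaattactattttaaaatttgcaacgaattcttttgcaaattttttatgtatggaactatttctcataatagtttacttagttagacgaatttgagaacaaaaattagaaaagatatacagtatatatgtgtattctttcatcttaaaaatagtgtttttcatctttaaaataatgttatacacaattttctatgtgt
SUFB: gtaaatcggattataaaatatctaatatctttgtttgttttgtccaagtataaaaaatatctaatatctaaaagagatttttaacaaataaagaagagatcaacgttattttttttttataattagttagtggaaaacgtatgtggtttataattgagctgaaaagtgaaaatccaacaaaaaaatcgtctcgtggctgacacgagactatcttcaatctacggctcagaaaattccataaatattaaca

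**Figure D1:**
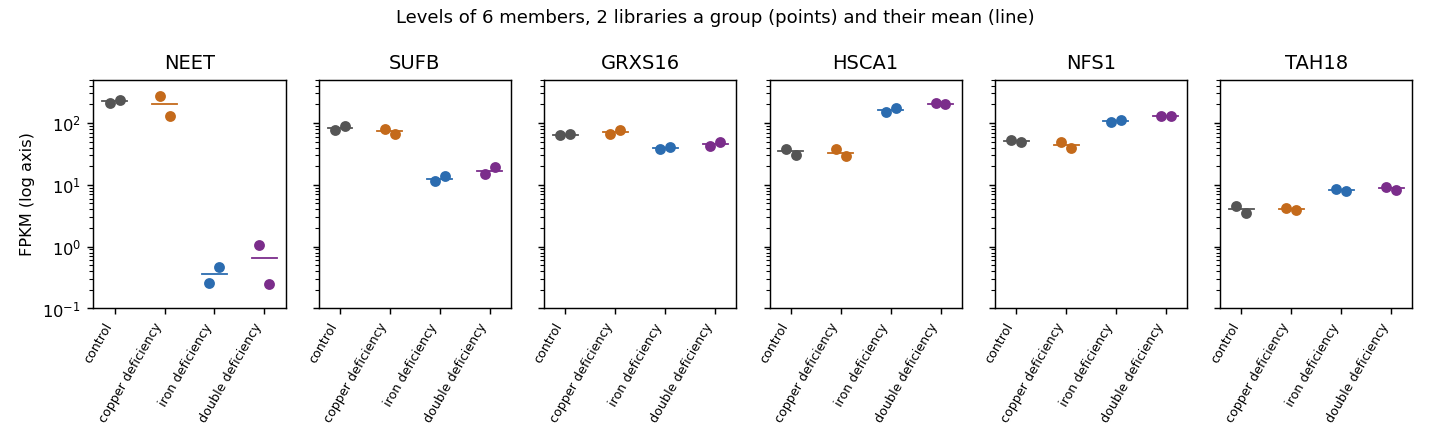
FPKM on a log axis for 6 members in the 4 groups; points are the 2 libraries of a group and lines their mean. NEET, SUFB and GRXS16 sit lower, and HSCA1, NFS1 and TAH18 higher, in all 4 libraries without iron than in all 4 with it.

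Of the 3 plastid scaffold subunits, SUFB had the largest change on iron removal. SUFB (AT4G04770, chromosome 4, 2427686 to 2429899), the subunit on which the cluster forms, had 78.3 and 89.6 FPKM in control leaves, 80.9 and 67.1 in copper deficiency, 11.3 and 13.7 in iron deficiency, and 14.7 and 19.3 in double deficiency. The libraries with and without iron did not overlap, and SUFB fell by 2.65 ± 0.17 in iron deficiency (limma adjusted p = 0.00026) and by 2.25 ± 0.17 in double deficiency (0.000361). Its partner SUFC, the ATPase of the same complex, ranged from 49.2 to 61.8 FPKM over all 8 libraries. SUFD, the third subunit, ranged from 43.2 to 59.2 FPKM. On the deposited scale neither passed the test, with changes in iron deficiency of -0.17 ± 0.10 (SUFC, limma adjusted p = 0.229) and -0.06 ± 0.13 (SUFD, 0.75). SUFC did fall under median-ratio scaling (-0.46 in iron deficiency, limma adjusted p = 0.0109, and -0.58 in double deficiency, 0.00446) and quantile normalization (-0.34, 0.0242, and -0.49, 0.00583). Within a library, which removes scaling, the ratio of SUFB to SUFC was 1.10 to 1.59 with iron and 0.23 to 0.344 without. The ratio of SUFB to SUFD was 1.31 to 1.73 with iron and 0.254 to 0.326 without.

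Among plastid sulfur donors, the desulfurase NFS2 (AT1G08490) had 22.7 and 22.7 FPKM in control leaves, 19.6 and 22.9 in copper deficiency, 30 and 38.3 in iron deficiency, and 35.7 and 35.4 in double deficiency. All libraries without iron were above all with it. NFS2 rose by 0.56 ± 0.14 in iron deficiency (limma adjusted p = 0.0236) and by 0.62 ± 0.14 in double deficiency (0.0122). Both calls were lost under median-ratio scaling (adjusted p = 0.126 and 0.25) and quantile normalization (0.0898 and 0.275). SUFE3, which joins a sulfur-transfer domain to a quinolinate synthase, ranged from 13.6 to 16.9 FPKM, and SUFE2, a desulfurase activator best known from pollen, from 0.59 to 1.77 FPKM. SUFE1, the general activator of NFS2, was listed at 0 FPKM in every library. Its whole annotated length of 1928 bases overlaps UKL4, and the libraries were unstranded. Whether its 0 is a lack of expression or a failed estimate was not tested.

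GRXS14, a monothiol glutaredoxin, was the highest plastid member, with 147 and 156 FPKM in control leaves, 154 and 180 in copper deficiency, 116 and 136 in iron deficiency, and 137 and 144 in double deficiency. It did not pass the test on the deposited scale (iron deficiency -0.27 ± 0.12, limma adjusted p = 0.124), but fell in iron deficiency with median-ratio scaling (-0.56, 0.0138) and quantile normalization (-0.35, 0.0451). Its plastid relative GRXS16 (AT2G38270, chromosome 2, 16031185 to 16033169) had 63.4 and 66.2 FPKM in control leaves, 65.5 and 77.7 in copper deficiency, 37.4 and 41.5 in iron deficiency, and 42.3 and 49 in double deficiency. The libraries with iron lay above all without it, and GRXS16 fell by 0.70 ± 0.12 in iron deficiency (limma adjusted p = 0.00772) and by 0.50 ± 0.12 in double deficiency (0.0182). The ratio of GRXS14 to GRXS16 was 2.31 to 2.35 with iron and 2.94 to 3.26 without. HCF101, the carrier needed for photosystem I, had 74.3 and 71.8 FPKM in control leaves, 72.9 and 84 in copper deficiency, 63 and 72.8 in iron deficiency, and 55.4 and 59.7 in double deficiency. Its iron-deficient libraries overlapped the controls, and it fell in double deficiency by 0.34 ± 0.11 (limma adjusted p = 0.0474). The carriers SUFA (99.2 to 164 FPKM), NFU1 (64.6 to 89.4), NFU2 (81 to 122) and NFU3 (21.7 to 34.9) passed in neither comparison on the deposited scale. With median-ratio scaling NFU1 fell in iron deficiency (-0.50, limma adjusted p = 0.0468) and in double deficiency (-0.68, 0.0155), and NFU3 fell in double deficiency (-0.53, 0.042). With quantile normalization both fell in double deficiency (-0.57, limma adjusted p = 0.0233, and -0.55, 0.0304). HCF101 also fell in iron deficiency with median-ratio scaling (-0.40, limma adjusted p = 0.0271), and its double-deficiency call was lost with nuclear coding scaling (0.0885). Leaving out 1 control or 1 library of the deficiency ended some calls here: the double-deficiency call of GRXS16 without control 1, control 2 or double 1 (limma adjusted p = 0.0562 to 0.107), that of HCF101 without any 1 of those 4 libraries (0.1 to 0.205), that of NFS2 without control 2, double 1 or double 2 (0.0548 to 0.0613), and the iron-deficiency call of NFS2 without control 1, control 2 or iron 2 (0.0807 to 0.0964).

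**Figure D2:**
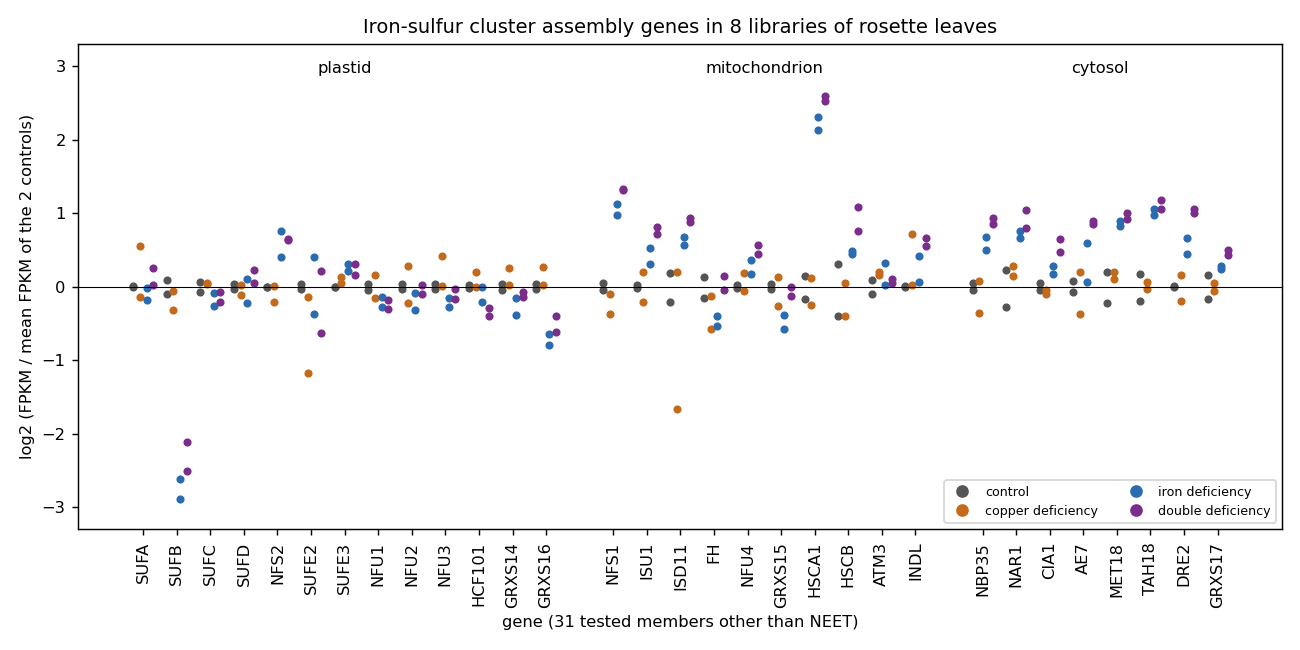
Log2 ratio of FPKM to the mean of the 2 controls for the 31 tested members other than NEET, by compartment; each point is a library, 2 a group. SUFB lies lowest and HSCA1 highest in the libraries without iron, and the cytosolic members lie above 0 in the libraries without iron; ISD11 is far below in 1 copper-deficient library (22.8 FPKM).

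In the mitochondrion the desulfurase NFS1 and the chaperone HSCA1 rose in both iron deficiency and double deficiency. HSCA1 (AT4G37910, chromosome 4, 17824777 to 17828192), an HSP70 chaperone assigned to moving clusters off the scaffold, had 38.3 and 30.8 FPKM in control leaves, 37.6 and 29 in copper deficiency, 152 and 172 in iron deficiency, and 208 and 199 in double deficiency. No library without iron came near any with it. HSCA1 rose by 2.20 ± 0.16 in iron deficiency (limma adjusted p = 0.000379) and by 2.53 ± 0.16 in double deficiency (0.000172). Reads of HSCA1 and its close copy HSCA2 may be divided inexactly, which was not tested. The ratio of HSCA1 to HSCA2 was 1.47 to 1.76 with iron and 3.20 to 4.04 without, and HSCA2 stood at 17.5 to 23.3 and 47.4 to 52.4 FPKM. The window before HSCA1 (TAIR10.1, chr4:17828193-17828442, minus strand) is shown as that of the member that rose most; its capitals mark the pair of site II matches, whose first bases lie at -175 and -127 from the gene start.
HSCA1: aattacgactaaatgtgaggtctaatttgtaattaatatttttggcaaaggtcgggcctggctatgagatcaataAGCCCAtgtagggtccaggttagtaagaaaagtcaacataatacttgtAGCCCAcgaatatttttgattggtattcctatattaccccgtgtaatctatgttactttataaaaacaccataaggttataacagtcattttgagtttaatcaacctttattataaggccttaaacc

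NFS1 (AT5G65720, chromosome 5, 26296025 to 26298091), the mitochondrial desulfurase, had 53.7 and 50.1 FPKM in control leaves, 48.4 and 40.1 in copper deficiency, 102 and 113 in iron deficiency, and 129 and 130 in double deficiency. The groups with and without iron were far apart, and NFS1 rose by 1.04 ± 0.11 (limma adjusted p = 0.00176) and 1.3 ± 0.11 (0.00051). The ratio of NFS1 to the plastid NFS2 was 1.75 to 2.47 with iron and 2.95 to 3.68 without. ISU1, the mitochondrial scaffold and the highest mitochondrial member, had 131 and 134 FPKM in control leaves, 115 and 153 in copper deficiency, 165 and 190 in iron deficiency, and 233 and 219 in double deficiency. Its libraries without iron lay above all with it, but it rose by the test in double deficiency (0.76 ± 0.15, limma adjusted p = 0.00797) and not in iron deficiency (0.41 ± 0.15, 0.0765; 0.0271 without copper 1 and 0.0274 without copper 2). With median-ratio scaling its double-deficiency change was 0.32 (limma adjusted p = 0.124), and with nuclear coding scaling it rose in iron deficiency too (0.60, 0.0126). Its copy ISU2 did not exceed 0.118 FPKM and was not tested.

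HSCB, the co-chaperone of HSCA1, had 10 and 6.14 FPKM in control leaves, 8.37 and 6.1 in copper deficiency, 11.3 and 11 in iron deficiency, and 13.7 and 17.1 in double deficiency. It rose in double deficiency (0.88 ± 0.25, limma adjusted p = 0.0281). The carrier NFU4 had 18.3 and 17.7 FPKM in control leaves, 17.3 and 20.5 in copper deficiency, 20.3 and 23.1 in iron deficiency, and 24.5 and 26.8 in double deficiency, and rose there by 0.49 ± 0.12 (limma adjusted p = 0.0177). For both genes the double-deficient libraries exceeded all controls. These 2 calls were lost without control 2, double 1 or double 2 (adjusted p = 0.0588 to 0.128 for HSCB and 0.0551 to 0.0954 for NFU4), and that of NFU4 also without control 1. With median-ratio scaling and quantile normalization the double-deficiency change was 0.06 and 0.01 for NFU4 (limma adjusted p = 0.713 and 0.941) and 0.47 and 0.36 for HSCB (0.193 and 0.295). GRXS15, the mitochondrial glutaredoxin, fell in iron deficiency, from control levels of 37.9 and 39.7 FPKM to 26 and 29.7; it stood at 32.5 and 42.7 in copper deficiency and 35.6 and 38.7 in double deficiency. That change (-0.47 ± 0.15, limma adjusted p = 0.0493) passed narrowly and was lost without either control, either iron-deficient or either double-deficient library (adjusted p = 0.0772 to 0.182), or with nuclear coding scaling (0.118), and its difference between double and iron deficiency was 0.41 ± 0.15 (0.196). With median-ratio scaling and quantile normalization GRXS15 fell in double deficiency as well (-0.50, limma adjusted p = 0.0418, and -0.47, 0.0314).

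ISD11, a small LYR protein that stabilizes NFS1, had 81.7 and 62.3 FPKM in control leaves, 82.3 and 22.8 in copper deficiency, 106 and 115 in iron deficiency, and 138 and 132 in double deficiency. The copper-deficient libraries disagreed: the deposited bounds of the lower one, 17.3 to 28.3 FPKM, did not reach those of any other library. ISD11 rose when double was compared with copper deficiency (1.61 ± 0.52, limma adjusted p = 0.0456), but leaving out 1 library of any other group ended that call (0.0636 to 0.142), as did median-ratio scaling (0.147) and quantile normalization (0.101). Without copper 1 it fell in copper deficiency (-1.60), a change that rests on the lower library alone. In the full fit its change was 0.62 in iron deficiency (limma adjusted p = 0.397) and 0.91 in double deficiency (0.202). Leaving out either copper library left these 2 changes as they were. Such fits also drop the spread between the copper-deficient libraries. FH, the plant frataxin, ranged from 9.02 to 14.9 FPKM, ATM3 from 15.2 to 20.3 FPKM and INDL, a carrier for complex I assembly, from 3.79 to 6.23 FPKM. None passed against control on the deposited scale. FH fell in iron deficiency with median-ratio scaling and quantile normalization (-0.69, limma adjusted p = 0.0292, and -0.78, 0.0179), and ATM3 fell in double deficiency (-0.34, 0.0401, and -0.41, 0.0231). NFU5 was listed at 0 FPKM in all libraries. It is a close copy of NFU4 and overlaps AT1G51400, at up to 4092 FPKM, by 72 bases. Whether its 0 is a lack of expression or a failed estimate was not tested.

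All 8 cytosolic members rose in double deficiency (3 with median-ratio scaling or quantile normalization), where 39.2% of all tested genes rose. In iron deficiency 5 rose (2 with median-ratio scaling and 1 with quantile normalization), where 27.2% of all tested genes did. TAH18 (AT3G02280, chromosome 3, 453329 to 457869), the flavoprotein that feeds electrons to the pathway and its lowest member, had 4.54 and 3.52 FPKM in control leaves, 4.21 and 3.94 in copper deficiency, 8.4 and 7.95 in iron deficiency, and 9.11 and 8.34 in double deficiency. Libraries with and without iron were clearly apart, and TAH18 rose by 0.87 ± 0.15 (limma adjusted p = 0.00658) and 0.96 ± 0.15 (0.00323). Its electron acceptor DRE2, an iron-sulfur protein itself, had 22.5 and 22.3 FPKM in control leaves, 19.5 and 24.9 in copper deficiency, 30.6 and 35.6 in iron deficiency, and 44.6 and 46.6 in double deficiency. Its groups without iron lay above those with it, and DRE2 rose by 0.54 ± 0.14 in iron deficiency (limma adjusted p = 0.0262) and 0.99 ± 0.14 in double deficiency (0.00234), while the step between these groups did not pass (0.46 ± 0.14, 0.147).

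NBP35 (AT5G50960, chromosome 5, 20734136 to 20736138), the cytosolic scaffold and the highest member there, had 28.7 and 30.5 FPKM in control leaves, 31.2 and 23.1 in copper deficiency, 41.8 and 47.3 in iron deficiency, and 53.5 and 56.4 in double deficiency. It rose in both iron-free groups (0.57 ± 0.15, limma adjusted p = 0.0287, and 0.87 ± 0.15, 0.00505). Its upstream window (TAIR10.1, chr5:20733886-20734135, plus strand) is shown for the cytosolic group and holds site II matches, in capitals, at -38 and -12.
NBP35: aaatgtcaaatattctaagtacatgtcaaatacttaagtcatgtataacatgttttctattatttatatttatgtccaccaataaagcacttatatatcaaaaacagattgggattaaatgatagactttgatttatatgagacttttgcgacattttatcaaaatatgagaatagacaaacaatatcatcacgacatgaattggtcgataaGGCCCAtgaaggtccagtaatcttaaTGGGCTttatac

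NAR1, which passes clusters from NBP35 onward, had 6.9 and 4.89 FPKM in control leaves, 7.19 and 6.53 in copper deficiency, 9.33 and 9.95 in iron deficiency, and 10.3 and 12.1 in double deficiency, and rose by 0.64 ± 0.17 (limma adjusted p = 0.0321) and 0.83 ± 0.17 (0.00992). Of the targeting complex that hands clusters to clients, MET18 had 4.97 and 3.73 FPKM in control leaves, 4.68 and 5.02 in copper deficiency, 7.68 and 8.05 in iron deficiency, and 8.26 and 8.71 in double deficiency. MET18 rose in both (0.74 ± 0.15, limma adjusted p = 0.0125, and 0.83 ± 0.15, 0.00579). For these genes, too, no library without iron overlapped one with it. CIA1, the WD40 subunit of that complex, had 19.5 and 20.8 FPKM in control leaves, 19.5 and 18.8 in copper deficiency, 22.7 and 24.4 in iron deficiency, and 27.9 and 31.7 in double deficiency, and rose in the last (0.54 ± 0.10, limma adjusted p = 0.00698; iron deficiency 0.21 ± 0.10, 0.152). With median-ratio scaling and quantile normalization that change of CIA1 was 0.11 and 0.07 (limma adjusted p = 0.511 and 0.63). AE7, the third subunit, had 19.2 and 21.2 FPKM in control leaves, 15.6 and 23.2 in copper deficiency, 21.1 and 30.5 in iron deficiency, and 37.4 and 36.5 in double deficiency, and rose in the last (0.84 ± 0.23, limma adjusted p = 0.0254; 0.41 and 0.39 under the same 2 scalings, 0.195 and 0.19). The double-deficient libraries of AE7 stood above all others. The cytosolic glutaredoxin GRXS17 had 20.4 and 16.3 FPKM in control leaves, 18.9 and 17.5 in copper deficiency, 21.7 and 22.3 in iron deficiency, and 25.9 and 24.7 in double deficiency, where it rose by 0.45 ± 0.12 (limma adjusted p = 0.0259), a value that was 0.02 under median-ratio scaling and turned to -0.03 under quantile normalization.

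Several cytosolic calls hung on 1 library. In iron deficiency, leaving out a control or an iron-deficient library ended the calls of NBP35 without any 1 of those 4, or either double-deficient library (limma adjusted p = 0.0519 to 0.133), of NAR1 without control 2, iron 1, iron 2 or double 2 (0.05 to 0.132), of DRE2 without control 1, control 2 or iron 2 (0.0836 to 0.126) and of MET18 without control 2 or iron 2 (0.055 and 0.0669). In double deficiency the calls of AE7 were lost without any 1 control or double-deficient library (0.0723 to 0.0985), of GRXS17 without control 2, double 1 or double 2 (0.0809 to 0.121) and of NAR1 without double 2 (0.0606). TAH18 passed in every such fit. Scaling ended further calls. In iron deficiency, median-ratio scaling and quantile normalization gave NBP35 0.28 and 0.35 (limma adjusted p = 0.236 and 0.125), NAR1 0.38 and 0.27 (0.127 and 0.257) and DRE2 0.25 and 0.27 (0.18 and 0.124), and quantile normalization gave MET18 0.37 (0.0744). In double deficiency, median-ratio scaling gave NBP35 0.43 (limma adjusted p = 0.0862) and NAR1 0.44 (0.085), and quantile normalization gave NAR1 0.31 (0.187) and MET18 0.32 (0.0955).

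Counted together, 32 of the 35 members passed the filter on low values and were tested. In iron deficiency 8 rose and 4 fell, where 27.2% of all tested genes rose and 6.85% fell. In double deficiency 14 rose and 4 fell, where 39.2% of all tested genes rose and 5.99% fell. Comparing double with copper deficiency, 15 rose and 4 fell, against 39.4% and 6.4% of all genes. The share of members that rose was close to that of all genes in each comparison. By compartment in iron deficiency, 1 plastid member rose and 2 fell of 13 tested, 2 mitochondrial members rose and 1 fell of 10, and 5 cytosolic members rose of 8. In double deficiency the plastid had 1 that rose and 3 that fell, the mitochondrion 5 that rose and the cytosol 8. The median change relative to all genes was -0.44 (iron deficiency) and -0.51 (double deficiency) for the plastid, 0.07 and 0.22 for the mitochondrion, and 0.29 and 0.43 for the cytosol.

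These counts depended on the scale. With median-ratio scaling 4 members rose and 9 fell in iron deficiency (14.6% and 14.5% of all genes), and 5 rose and 10 fell in double deficiency (16.6% and 15.2%). With quantile normalization 3 rose and 7 fell in iron deficiency (13.8% and 14.1% of all genes), and 6 rose and 10 fell in double deficiency (15.6% and 17.3%). With scaling to nuclear coding transcripts 13 rose and 3 fell in iron deficiency, where 41.1% of all genes rose and 5.03% fell; in double deficiency those shares of all genes were 47.6% and 5.15%. Of the 13 plastid members, 6 and 4 fell in iron deficiency under median-ratio scaling and quantile normalization, and 7 under each in double deficiency, against 2 and 3 on the deposited scale. The cytosolic members that rose then numbered 2, 1 and 7 in iron deficiency under those scalings in turn, and 3, 3 and 8 in double deficiency. Relative to all genes, the compartment medians kept their signs: over the deposited and the 3 other scales the plastid lay between -0.54 and -0.45 in double deficiency, the mitochondrion between 0.20 and 0.23, and the cytosol between 0.40 and 0.44. The raw plastid median did not keep its sign (-0.53 to 0.00 in double deficiency, -0.46 to 0.01 in iron deficiency). Under all scalings, NEET, SUFB and GRXS16 fell and HSCA1, NFS1 and TAH18 rose in both iron deficiency and double deficiency, and DRE2 also rose in double deficiency.

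Ratios within a library need no scaling between libraries. The geometric mean of the 10 tested mitochondrial members over that of the 13 plastid members was 0.468 to 0.615 in the 4 libraries with iron and 0.945 to 1.14 in the 4 without. Without HSCA1 and SUFB, the ratio was 0.468 to 0.62 and 0.729 to 0.906, so the ranges stayed apart when the members that moved most in each compartment were set aside. The cytosolic geometric mean over the plastid one was 0.261 to 0.314 with iron and 0.51 to 0.602 without. In summed FPKM, the plastid members made up 51.2% to 61.7% of all members with iron and 40.5% to 45.3% without, and the mitochondrial members 22.3% to 26% and 43.1% to 47%.

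**Figure D3:**
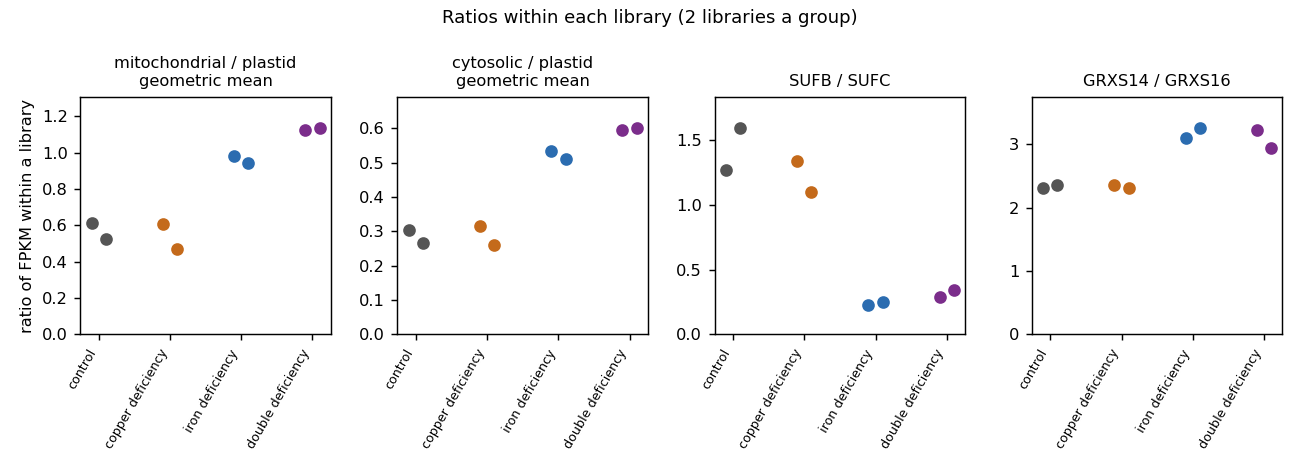
Ratios of FPKM within each library, 2 points a group: mitochondrial over plastid and cytosolic over plastid geometric means, SUFB over SUFC, and GRXS14 over GRXS16. In each panel the 4 libraries without iron are separate from the 4 with it, as for the mitochondrial over plastid ratio (0.945 to 1.14 against 0.468 to 0.615).

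Iron removal was measured in separate libraries with copper (iron deficiency minus control) and without it (double minus copper deficiency). The sign of the change was the same in 29 of 32 members, and in 80.2% of all 19171 tested entries. Across the members the changes had a Pearson r of 0.98, or 0.93 without NEET, against 0.55 across all genes; genes of 1 library are not independent points. In both settings 8 members rose and 3 fell of 32, where 23% of all genes rose and 4.38% fell in both: NFS2, NFS1, HSCA1, NBP35, NAR1, MET18, TAH18 and DRE2, and SUFB, GRXS16 and NEET. The test of the difference between these settings called no member, where 0.589% of all genes were called. At an unadjusted limma p under 0.05 stood 4 of 32 members (CIA1, DRE2, FH and NFS1) and 2585 of all 19171 genes. The interaction of NFS1 was 0.50 ± 0.16 (limma adjusted p = 0.279).

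**Figure D4:**
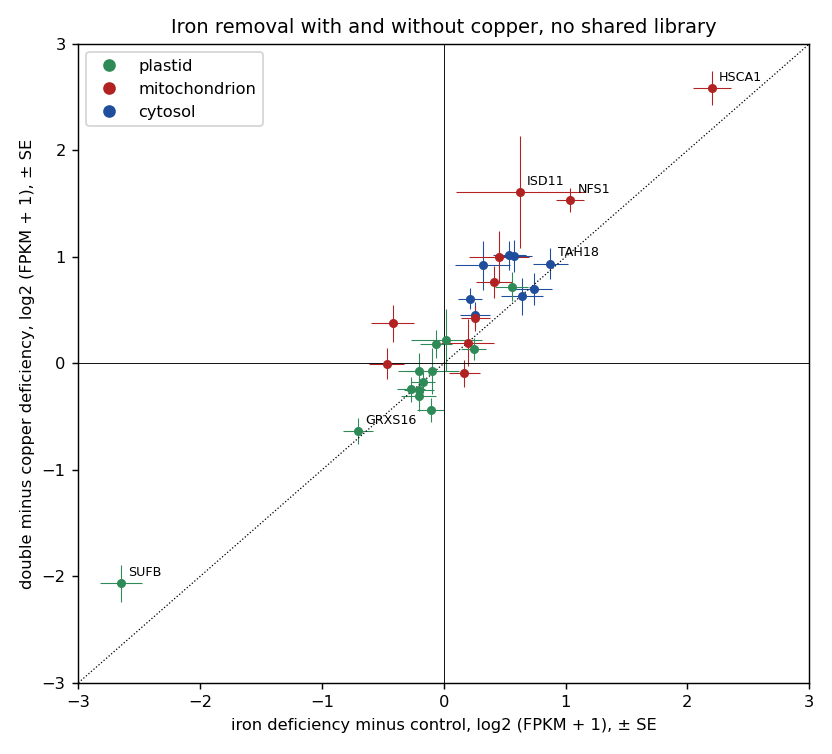
Change on iron removal with copper (horizontal) and without copper (vertical) in log2(FPKM + 1) for the 31 tested members other than NEET, with SE bars, coloured by compartment; the dotted line marks equal change. HSCA1 and SUFB lie at opposite ends, SUFB 0.59 above the line, and ISD11 has the widest bars (0.52).

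Copper deficiency alone called no member by limma, where 0.183% of all genes were called. It called none of the 6 metal status genes either, so a lack of calls is no evidence of a lack of response. No member had an unadjusted limma p under 0.05, against 937 of all 19171 genes. Member changes ran from -0.70 (ISD11) to 0.30 (INDL). Leaving out copper 1 gave the single call, the fall of ISD11 given above. Copper removal in leaves that also lacked iron (double against iron deficiency) called no member either, against 1.14% of all genes. An unadjusted limma p under 0.05 was reached by 4 of 32 members (CIA1, DRE2, FH and GRXS15) and by 3906 of all 19171 genes. In that comparison 27 of 32 changes were above 0, on a scale where the median gene stood 0.15 higher, and 22 of 32 were above that median. Between the copper comparisons, which share no library, the sign was the same in 12 of 32 members and in 49.6% of all genes. The 95% interval of NFS1 was -0.50 to 0.04 for copper deficiency.

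Other genes of cluster assembly, 17 further loci of which 14 were tested, included 6 that rose and 1 that fell in iron deficiency and 8 that rose in double deficiency, with medians of 0.15 and 0.35 relative to all genes. Of all tested genes, 27.2% rose and 6.85% fell in iron deficiency, and 39.2% rose and 5.99% fell in double deficiency. The mitochondrial ferredoxin MFDX1, which supplies electrons for cluster formation, rose by 1.12 ± 0.21 (limma adjusted p = 0.0103) and 1.67 ± 0.21 (0.00177). The late-acting factor IBA57.1 rose by 1.20 ± 0.19 (limma adjusted p = 0.00578) and 1.43 ± 0.19 (0.0021), and HSCA2 by 1.21 ± 0.14 (0.00209) and 1.32 ± 0.14 (0.000959). ABA3, which puts sulfur on the molybdenum cofactor, rose by 1.06 ± 0.25 (limma adjusted p = 0.0193) and 1.05 ± 0.25 (0.0155).

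Client proteins, which carry the finished clusters, were counted in the same way, against the same shares of all genes (27.2% risen and 6.85% fallen in iron deficiency, 39.2% and 5.99% in double deficiency). Of 21 plastid iron-sulfur proteins, 4 rose and 7 fell in iron deficiency, and 2 rose and 7 fell in double deficiency (medians -0.40 and -0.56 relative to all genes). Of the plastid clients, nitrite reductase NIR1 fell by 1.10 ± 0.15 (limma adjusted p = 0.00379) and 1.38 ± 0.15 (0.00114), and the minor leaf ferredoxin FD1 rose by 0.93 ± 0.14 (0.00529) and 1.29 ± 0.14 (0.00118) while the major one, FD2, stood at 2122 to 3027 FPKM with iron and 219 to 406 FPKM without. Of 15 mitochondrial clients, 1 rose and 5 fell in iron deficiency, and 4 rose and 5 fell in double deficiency (medians -0.35 and -0.39). The biotin synthase BIO2 fell by 1.08 ± 0.15 (limma adjusted p = 0.00396) and 0.86 ± 0.15 (0.00585), and the aconitase ACO3 by 0.64 ± 0.12 (0.0109) and 0.57 ± 0.12 (0.0114). Of 17 tested cytosolic and nuclear clients, 5 rose and 1 fell in iron deficiency, and 4 rose and 2 fell in double deficiency (medians -0.09 and -0.22). The DNA glycosylase ROS1 rose in iron deficiency (1.01 ± 0.20, limma adjusted p = 0.0107) and stood 0.21 ± 0.20 higher in double deficiency (0.423), the ribosome recycling factor RLI2 fell in iron deficiency (-0.67 ± 0.10, 0.00501), and the helicase UVH6 rose in both (0.71 ± 0.15, 0.0145, and 0.59 ± 0.15, 0.0207). In iron deficiency the medians of assembly members and clients were -0.44 and -0.40 for the plastid, 0.07 and -0.35 for the mitochondrion, and 0.29 and -0.09 for the cytosol; these differences were not tested.

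Motif matches in the 250 bases before the gene start were counted for all members. A site II element stood in 10 of 35 members (28.6%), against 19.2% of 27443 nuclear coding genes: 3 of 14 plastid, 3 of 12 mitochondrial and 4 of 8 cytosolic members (MET18, NBP35, DRE2 and AE7), and not NEET. A G-box stood in 2 members (ISU2 and NFU1), against 6.49% of all genes. Among genes that rose in both iron-free groups, HSCA1, NFS2, NBP35, MET18 and DRE2 had a site II match and NFS1, TAH18 and NAR1 had none. The other members with a match, AE7, FH, ISD11, NFU2 and NFU3, did not rise in both groups. A match is a string of letters and not a measured binding site.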

How the data were processed

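RNA of rosette leaves was sequenced in 8 unstranded libraries, 2 for each of 4 groups. The authors deposited FPKM per gene and library with lower and upper bounds; per the submitters' processing notes, Trimmomatic, TopHat2 2.1.1, Cufflinks and Cuffdiff were used. Not given in the sources used here is the genome build; 99.2% of the 38093 entries matched a TAIR10.1 locus, 99.9% of those at the same start and end. Coordinates and upstream sequences are from RefSeq TAIR10.1. Raw counts and total read numbers were not used, so depth is relative only. The deposited bounds gave that relative depth and did not enter the tests.

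Values were tested as log2(FPKM + 1) with limma 3.58.1 (R 4.3.3) in 1 model of all 8 libraries, with trended empirical Bayes. Entries with at least 1 FPKM in at least 2 libraries entered (19171), p-values were Benjamini-Hochberg adjusted over them, and a change was called at an adjusted p under 0.05. The procedure was tested on simulated data in which few genes changed, in iron deficiency only, without a shift of the median gene. That test therefore cannot speak to the choice of scaling. Fold changes of low genes are understated by the pseudocount. Alternatives were a pseudocount of 0.1, a filter of 5 FPKM or none, 3 scalings, a replicate block and leaving out each library. The members, the gene lists and the rule for naming (every member called, the highest and lowest of a compartment, and up to 4 called genes of each other list) were chosen with earlier results of these data known. The 2 copies of a gene family and overlapping genes may share fragments in unstranded data.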

Additional observations from a re-analysis of the deposited data

How the results depend on the processing

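Counts of members that rose and fell, 8 and 4 in iron deficiency, 14 and 4 in double deficiency and 15 and 4 for double against copper deficiency, kept within 1.5 times under a pseudocount of 0.1, a filter of 5 FPKM, no filter and the replicate block. Under median-ratio scaling they were 4 and 9, 5 and 10, and 5 and 10; under quantile normalization 3 and 7, 6 and 10, and 6 and 11; with nuclear coding scaling 13 rose in iron deficiency. Both former scalings take away the upward shift of the median gene, by construction. Leaving out 1 library gave 3 to 10 risen and 3 to 4 fallen in iron deficiency, 8 to 16 and 2 to 4 in double deficiency, 8 to 14 and 2 to 6 for double against copper deficiency, 0 to 1 fallen in copper deficiency and 0 to 1 risen for the interaction (ISD11 without copper 1: 1.89, limma adjusted p = 0.0384). Leaving out a copper-deficient library also added calls: INDL in double deficiency (0.50, limma adjusted p = 0.0466 without copper 1 and 0.0487 without copper 2) and, for double against copper deficiency, NFU1 (-0.40, 0.0409) and NFU3 (-0.50, 0.028) without copper 1 and FH (0.58, 0.045) without copper 2. Such a fit assumes that a lone library varies like the other groups.

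Among changes called in the original or the alternative fit, signs turned for 4 genes. These were SUFE3 in double against copper deficiency (-0.29 median-ratio, -0.35 quantile), NFU4 there (-0.0089 and -0.047) and ATM3 in double deficiency (-0.34 and -0.41). GRXS17 turned under quantile normalization (-0.032 in double deficiency, -0.021 against copper deficiency). Another 164 single-gene values changed sign without a call in either fit. Of 2874 single-gene values under an alternative, 2527 kept direction and side of the threshold, and 131 calls of the original fit were not repeated. With no filter, the calls of GRXS15, NAR1 and NBP35 in iron deficiency, of AE7, HCF101 and HSCB in double deficiency and of NAR1 and ISD11 in double against copper deficiency were lost. The calls of NEET, SUFB, HSCA1, NFS1 and TAH18 held in every alternative for iron and double deficiency, as did GRXS16 in iron deficiency and DRE2 in double deficiency. The replicate numbers did not pair the libraries (r of the deviations between groups -0.0394 to 0.0238), and the replicate block left the counts at 8 and 4, 14 and 4, and 15 and 4. The sample titles also carry letters, B and C in copper deficiency and A and B in the other groups. Pairing of the copper-deficient libraries by letter was not tested. Read totals were not used. The deposited bounds of the lowest tested member, SUFE2 (0.59 to 1.77 FPKM), were wide, for example 0.473 to 2.26 FPKM in control 1 and 0 to 1.26 FPKM in copper 1.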
